A study of Homo sapiens with 2 samples.

Results

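A set of miRNAs that are widely used to normalise RNA from plasma and extracellular vesicles was followed in exosomes, the small secreted vesicles, of HuH-7 cells, an established line from a human liver cancer. The members were chosen by name, as hsa-miR-423-5p, hsa-miR-423-3p, hsa-miR-484, hsa-miR-191-5p, hsa-miR-191-3p, hsa-miR-425-5p, hsa-miR-425-3p, hsa-miR-103a-3p and hsa-miR-16-5p, together with hsa-miR-451a, the miRNA of red cells, and make up 10 of the 2565 miRNA probes on the array. The species prefix is left out below. The groups were HuH-7-M exosomes and HuH-7-P exosomes, with 1 array each. Both carry the same cell line and cell type label, both were grown with fetal bovine serum and then kept in advanced DMEM before the vesicles were pelleted by ultracentrifugation, and the letters M and P are not spelled out. The series title speaks of cell lines of high intrahepatic metastasis. Since each group is a single vesicle preparation on a single array, no test between the groups was possible, and the differences below are differences between these arrays.

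A miRNA is a short RNA that guides an Argonaute protein to messenger RNAs through its seed, bases 2 to 8 from its 5′ end. Most are cut from a hairpin, which can give a 5p and a 3p arm of unequal abundance. Cells pack a selection of them into vesicles, where the protein and the membrane protect them from nucleases. A reference miRNA is one whose level is taken to be equal across samples, so that the others can be expressed relative to it, and miR-451a serves in blood work as a marker of RNA from lysed red cells.

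The sequences of 8 of the 10 were taken from RefSeq (GRCh38.p14). They are shown because the seeds separate the arms of a hairpin from each other and join miR-423-5p, miR-484, miR-103a-3p and miR-16-5p to relatives that were also on the array. Capitals mark the seed.
miR-423-5p: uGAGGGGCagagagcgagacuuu
miR-423-3p: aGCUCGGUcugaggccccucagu
miR-484: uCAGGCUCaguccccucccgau
miR-191-5p: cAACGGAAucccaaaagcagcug
miR-191-3p: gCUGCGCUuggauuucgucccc
miR-425-3p: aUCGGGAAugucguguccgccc
miR-103a-3p: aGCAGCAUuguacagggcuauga
miR-16-5p: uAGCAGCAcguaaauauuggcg
miR-107: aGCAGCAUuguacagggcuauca
miR-3184-5p: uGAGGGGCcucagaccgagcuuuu
miR-3184-3p: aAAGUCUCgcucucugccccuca
No 2 of the 8 members share a seed. miR-191-5p, miR-191-3p, miR-425-3p and miR-423-3p have seeds that no other mature miRNA of the table carries.

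Both arms of miR-423 come from the hairpin at chr17:30117079-30117172 on the plus strand, inside the span of NSRP1, with the 5p arm at chr17:30117095-30117117 and the 3p arm at chr17:30117131-30117153. The hairpin is given with both arms in capitals.
MIR423: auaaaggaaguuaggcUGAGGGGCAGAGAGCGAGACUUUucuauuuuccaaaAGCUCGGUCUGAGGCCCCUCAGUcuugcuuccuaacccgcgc
miR-3184 is read from the opposite strand of the same place, and miR-3184-3p is the exact reverse complement of miR-423-5p over its 23 bases. miR-191 (hairpin chr3:49020618-49020709) and miR-425 (hairpin chr3:49020148-49020234) are neighbours on the minus strand inside the span of DALRD3. miR-484 lies at chr16:15643294-15643372 on the plus strand, where no other annotated gene spans it. miR-103a-3p comes from hairpins at chr5:168560896-168560973 in the span of PANK3 and chr20:3917494-3917571 in that of PANK2, and miR-16-5p from hairpins at chr13:50048973-50049061 in that of DLEU2 and chr3:160404745-160404825 in that of SMC4. An array cannot assign miR-103a-3p or miR-16-5p to one of its loci.

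Most of these reference miRNAs were dim. The value of a spot is its median intensity in arbitrary units, and its signal is that value minus the mean of 320 BLANK spots, which averaged 58.7 ± 1.63 on HuH-7-M, against 59.7 ± 1.64 on HuH-7-P (SD over spots). A background limit was set from the BLANK spots, their top and bottom 5% left out, as mean plus 2 SD. This BLANK limit was 61.2 on HuH-7-M, against 62.3 on HuH-7-P. All 10 members passed it on HuH-7-M and 8 of 10 on HuH-7-P, so that 8 of 10 were measured on both arrays, against 62.1% of all miRNA probes. Other control spots, which the scanner output calls No Probe, were brighter, with 81.1 ± 5.73 on HuH-7-M, against 79.8 ± 7.20 on HuH-7-P (SD over 85 spots), and gave limits of 89.9 on HuH-7-M, against 86.9 on HuH-7-P. All 85 No Probe spots also passed the BLANK limit on each array, as did every spot named Negative Control 2 or 3. Passing the BLANK limit therefore does not show by itself that a miRNA was present. Above the No Probe limits stood 1 of 10 members on HuH-7-M, against 31.5% of all probes, and 2 of 10 on HuH-7-P, against 35.2%. On both arrays it was miR-423-5p alone, 1 of 10, against 30.8%.

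**Figure D1:**
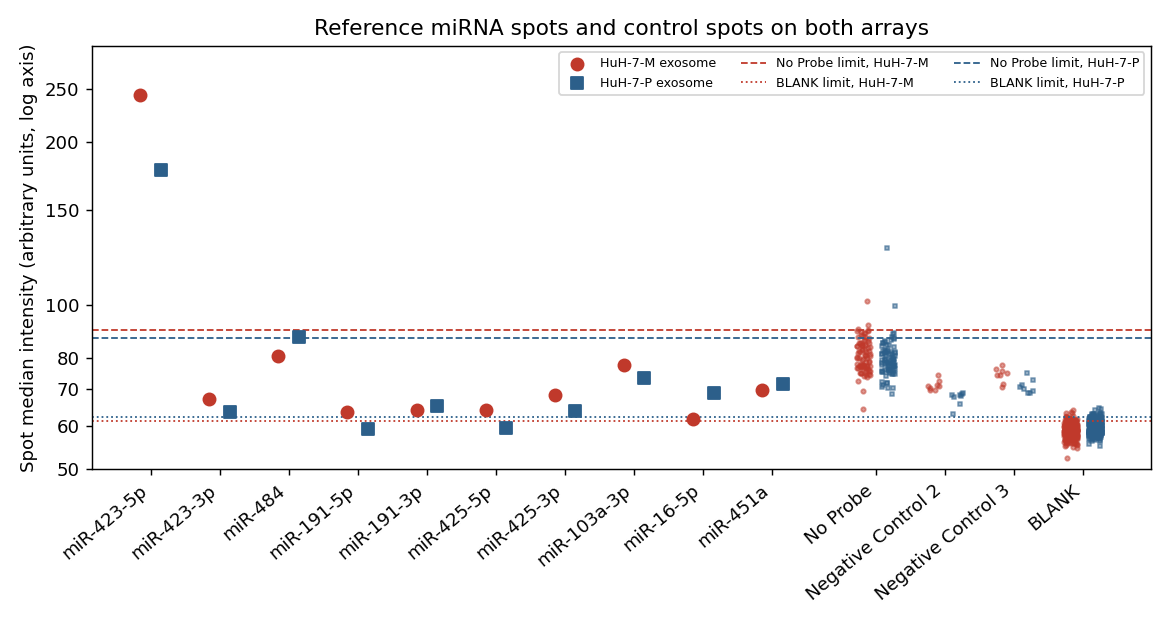
Spot median intensity (arbitrary units, log axis) of the 10 reference miRNAs, 1 spot per array, with HuH-7-M as circles to the left of HuH-7-P as squares, beside every No Probe, Negative Control 2, Negative Control 3 and BLANK spot. Dashed and dotted lines are the No Probe and BLANK limits of each array. miR-423-5p, at 243 on HuH-7-M, against 177 on HuH-7-P, stands above all control spots shown, and the other 9 lie between 61.8 and 80.8 on HuH-7-M and between 59.3 and 87.2 on HuH-7-P.

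miR-423-5p read above the background controls on both arrays. This miRNA is abundant in plasma and is often proposed as a reference in serum and vesicle studies. Its spot read 243 on HuH-7-M, against 177 on HuH-7-P, which are signals of 185 and 118 after subtraction of the BLANK mean. No control spot of the No Probe, Negative Control 2, Negative Control 3 or BLANK kind was brighter on either array, nor was any of the 16 Negative Control 1 spots, which ran from 55.7 to 105 on HuH-7-M and from 55.7 to 92.9 on HuH-7-P and are used nowhere else. The signal was 1.57-fold higher on HuH-7-M, a log2 difference of 0.65. Replicate spots of 4 control probes above the No Probe limit, the S-Probes 21, 22, 24 and 27, whose mean signals ran from 36.7 to 795 on HuH-7-M and from 33.5 to 391 on HuH-7-P, had a log2 SD of 0.16 within an array, or 0.22 for the difference of 2 such spots, which leaves out any spread between preparations or arrays. The mean log2 differences of the same control probes between the arrays were 0.19, 0.13, -0.032 and 1.03. Among 176 other miRNAs whose geometric mean signal lay within a factor of 1.5 of it, the median log2 difference was 0.0057 with quartiles of -0.30 and 0.28, and 91.5% lay below miR-423-5p. Under scaling by Spike Control spots, where the 1593 miRNAs measured on both arrays had a median of -0.58, its log2 difference was 0.068.

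The opposite arm was near background. miR-423-3p, the less often used arm, read 67.2 on HuH-7-M, against 63.6 on HuH-7-P, with signals of 8.42 and 3.86. On HuH-7-M it was dimmer than all 16 spots of Negative Control 2 and 3, and on HuH-7-P dimmer than 15 of them. The ratio of its signals was 2.18-fold higher on HuH-7-M (log2 difference 1.13), while the gap itself was 3.58 units.

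miR-3184-5p, which shares the seed of miR-423-5p and differs from it at 10 of the first 23 bases, read 144 on HuH-7-M, against 104 on HuH-7-P. Its signals of 85.6 and 43.9 give a log2 difference of 0.96, in the same direction as miR-423-5p. miR-3184-3p, the reverse complement, read 91.5 on HuH-7-M, against 92.1 on HuH-7-P (log2 difference of signals 0.017). Both probes passed the No Probe limit on each array. How far one of these probes binds RNA of a related sequence was not tested.

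miR-484 was the only other member to pass a No Probe limit, and did so on 1 array. It has been recommended as a stable serum reference in several cancers. Its spot read 80.8 on HuH-7-M, against 87.2 on HuH-7-P, with signals of 22.1 and 27.5 and a log2 difference of -0.32, which was -0.90 with Spike Control scaling, -1.20 with the mean of Negative Control 2 and 3 subtracted and 0.32 when the column named background median was read as the signal. Of the 85 No Probe spots, 41 were brighter on HuH-7-M, against 5 on HuH-7-P. The gap of -6.42 units was exceeded in size by 18 of the 85 No Probe positions, each compared with itself between the arrays. miR-3155a and miR-3155b, which share the seed CAGGCUC with miR-484, read 85.7 and 94.1 on HuH-7-M, against 89.6 and 91.8 on HuH-7-P (log2 differences of signals -0.15 and 0.14), and miR-3155b passed the No Probe limit on each array.

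The 4 arms of the miR-191 and miR-425 pair, which are made from one transcript, all read under the No Probe limits. miR-191-5p, one of the most used reference miRNAs, read 63.6 on HuH-7-M, against 59.3 on HuH-7-P, and miR-425-5p read 64.3 on HuH-7-M, against 59.6 on HuH-7-P. On HuH-7-P both were below the BLANK limit, where 192 and 171 of the 320 BLANK spots were brighter. On HuH-7-M both were dimmer than all 16 Negative Control 2 and 3 spots, and no alternative gave a fold for either. In place of a fold, the HuH-7-M signals of 4.91 and 5.54 were divided by 2.61, the lowest HuH-7-P signal above the limit. With the unscaled HuH-7-M signals taken as exact, this gives at least 1.88-fold higher for miR-191-5p and at least 2.12-fold higher for miR-425-5p. These were 2 of 10 members above the BLANK limit on HuH-7-M only, against 3.04% of all probes. All 85 No Probe spots were brighter than either on both arrays.

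The 3p arms passed the BLANK limit on both arrays. miR-191-3p read 64.1 on HuH-7-M, against 65.3 on HuH-7-P, with signals of 5.33 and 5.61 (log2 difference -0.074). miR-425-3p read 68.5 on HuH-7-M, against 63.8 on HuH-7-P, with signals of 9.76 and 4.11, 2.37-fold higher on HuH-7-M (log2 difference 1.25). The gap behind that ratio was 4.66 units, close to the 4.34 and 4.70 units of miR-191-5p and miR-425-5p. Negative Control 2 and 3, control probes by their name, were likewise brighter on HuH-7-M, by 3.99 ± 2.87 and 3.55 ± 2.83 units (SD over 8 spots each). Their part in the gaps of the dim members was not tested.

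miR-103a-3p and its relative miR-107 were both above the BLANK limit on both arrays. These miRNAs sit in the genes of pantothenate kinases and, in mouse liver, are known to lower insulin sensitivity. They share the seed GCAGCAU and differ at 1 of 23 bases, G22C counted from the 5′ end of miR-103a-3p. miR-103a-3p read 77.7 on HuH-7-M, against 73.6 on HuH-7-P, with signals of 18.9 and 13.8, and miR-107 read 78.8 on HuH-7-M, against 74.4 on HuH-7-P, with signals of 20.1 and 14.6. Both log2 differences were 0.45, and how far either probe binds the other RNA was not tested. That of miR-103a-3p was -0.13 with Spike Control scaling, 0.12 after normexp and quantile normalisation, 0.11 with the Negative Control 2 and 3 mean subtracted and 1.29 with the column named background median. No Negative Control 2 or 3 spot was brighter than miR-103a-3p on HuH-7-M and 1 was on HuH-7-P, while 55 and 77 of the 85 No Probe spots were. The opposite strand of the same loci, miR-103b, was not above background on either array (57.1 on HuH-7-M, against 56.4 on HuH-7-P).

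miR-16-5p, which represses cell cycle genes and BCL2 and is abundant in blood cells and in many tissues, was the member with the lowest HuH-7-M value relative to HuH-7-P. Its spot read 61.8 on HuH-7-M, against 69.1 on HuH-7-P, with signals of 3.03 and 9.35. The HuH-7-M spot lay just above the BLANK limit of 61.2, and 13 of the 320 BLANK spots were brighter there. The ratio was 3.08-fold higher on HuH-7-P (log2 difference -1.62), on a gap of -7.30 units that 14 of the 85 No Probe positions exceeded in size. The No Probe positions were brighter and spread more than the BLANK positions, whose gaps ran from -8.68 to 5.61 units. miR-423-5p, a far brighter spot in the same block of the array, went the other way by 66.1 units, and the BLANK spots of that block averaged 58.2 on HuH-7-M, against 58.3 on HuH-7-P. Whether the position on the array has a part in the gap of miR-16-5p was not tested.

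Relatives of miR-16-5p with the seed AGCAGCA numbered 6, and 2 of them were measured on both arrays. miR-15b-5p, made from the same transcript as the copy on chromosome 3, read 62.9 on HuH-7-M, against 66.4 on HuH-7-P (log2 difference of signals -0.68). miR-6838-5p, past the No Probe limit on each array, read 97.6 on HuH-7-M, against 103.8 on HuH-7-P (-0.18). miR-424-5p passed the BLANK limit on HuH-7-P only, at 57.2 on HuH-7-M, against 62.8 on HuH-7-P. miR-15a-5p, 59.7 on HuH-7-M, against 59.8 on HuH-7-P, miR-195-5p, 57.7 and 58.5, and miR-497-5p, 61.1 and 60.2, were above background on neither. miR-16-2-3p, the opposite arm of the copy on chromosome 3, read 63.1 on HuH-7-M, against 62.96 on HuH-7-P, with a log2 difference of signals of 0.43. miR-195-5p differs from miR-16-5p at G10A and U11G over their first 21 bases.

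miR-451a, which is made in red cell precursors without Dicer, read 69.9 on HuH-7-M, against 71.8 on HuH-7-P, with signals of 11.1 and 12.03 (log2 difference -0.11). No BLANK spot was as bright, whereas 83 of the 85 No Probe spots were brighter on HuH-7-M, against 80 on HuH-7-P. The remaining red cell markers were uneven. miR-144-3p and miR-144-5p, from the same transcript as miR-451a, were below the BLANK mean on both arrays, with signals of -4.75 and -6.48 for miR-144-3p on HuH-7-M and HuH-7-P. miR-486-5p had signals of 28.5 on HuH-7-M, against 30.6 on HuH-7-P, and its opposite arm miR-486-3p 252 on HuH-7-M, against 278 on HuH-7-P. Of the 5 red cell markers 3 were measured on both arrays, against 62.1% of all probes, and none was 2-fold apart. The signals of all 5, those below 0 included, summed to 283 on HuH-7-M, against 308 on HuH-7-P, most of it from miR-486-3p, and those of the 3 measured ones to 291 on HuH-7-M, against 321 on HuH-7-P. Of 7 markers of leukocytes, platelets and endothelium 2 were measured, miR-150-5p and miR-223-3p, and the signals ranged from -3.20 to 7.79 on HuH-7-M and from -7.21 to 8.38 on HuH-7-P, with miR-126-3p, miR-126-5p, miR-142-3p and miR-142-5p below the BLANK mean on both arrays. The hepatocyte miRNA miR-122-5p had signals of 67.7 on HuH-7-M, against 39.98 on HuH-7-P, past the No Probe limit on each, and 4 of 6 hepatocyte markers were measured, near the share over all probes. miR-885-5p, also past the No Probe limit on each, had signals of 36.9 on HuH-7-M, against 29.8 on HuH-7-P. miR-192-5p and miR-194-5p went the other way, with 24.0 and 10.8 on HuH-7-M, against 27.8 and 13.8 on HuH-7-P. The median log2 difference of the 4 was 0.048.

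The gaps of the 9 dim members between the arrays ranged from -7.30 to 4.70 units, and the gap of each was exceeded in size by at least 14 of the 85 No Probe positions. The No Probe positions themselves differed between the arrays by 1.23 ± 5.88 units (SD, range -25.7 to 17.4), and the BLANK positions by -0.99 ± 2.17 (range -8.68 to 5.61). Negative Control 2 and 3 gaps ran from 0.16 to 9.62 units. The No Probe spots averaged brighter than most of the dim members and spread most, so they are a wide yardstick. The 4 negative gaps of members lay outside the Negative Control range, and that of miR-16-5p, -7.30, lay near the low end of the BLANK range. The gap of miR-423-5p, 66.1 units, has no fair match among these control positions, since a gap in units grows with brightness and the No Probe spots were dimmer. The brighter S-Probes 21 and 27 had mean gaps of 35.9 and 402 units, and S-Probe 24, close to miR-423-5p in signal on HuH-7-M, had -4.90. On HuH-7-M, 7 of the 10 members were dimmer than all 16 Negative Control 2 and 3 spots, and on HuH-7-P 2 of the 10 were.

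**Figure D2:**
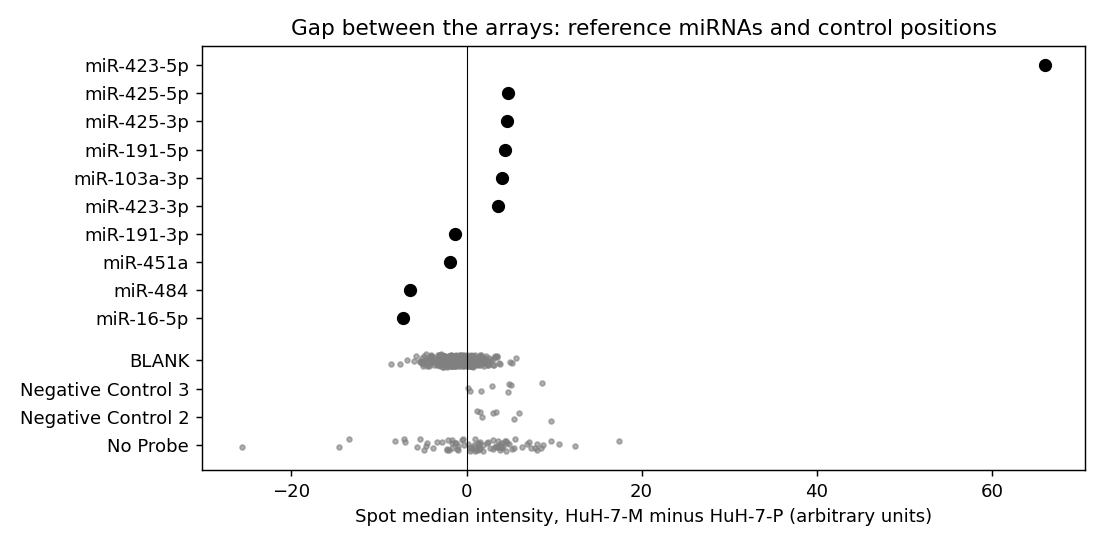
Spot median intensity on HuH-7-M minus that on HuH-7-P (arbitrary units) for each reference miRNA (black, 1 position each) and for every BLANK, Negative Control 2, Negative Control 3 and No Probe position (grey). Gaps grow with brightness, and miR-423-5p, the bright member, lies at 66.1, while the other 9 lie between -7.30 and 4.70, inside the range of the No Probe positions.

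On the scale of ratios the same values spread widely. Over the 8 members measured on both arrays the log2 differences of signal ran from -1.62 to 1.25 with a median of 0.19, 4 above 0 and 4 below. By a 2-fold rule 2 were higher in HuH-7-M, miR-425-3p and miR-423-3p, against 3.33% of the 1593 miRNAs measured on both arrays, and 1 was lower, miR-16-5p, against 4.46%. All 1593 had a median of 0.0035, quartiles of -0.26 and 0.30, and 7.78% past 2-fold in either direction. Those 3 members all had a geometric mean signal under 10. Among the 287 miRNAs that dim the interquartile range was 0.82 and 11.5% were past 2-fold, against 0.36 and 4.01% among the 399 with a signal of 20 to 50. Members were also ranked among other miRNAs of like signal, chosen as for miR-423-5p. Below miR-425-3p and miR-423-3p lay 97.4% of 229 and 95.9% of 218 such miRNAs, and below miR-16-5p 0.99% of 202. Those 3 members thus lay near the ends of the spread at their own brightness. For miR-191-3p, also with a signal under 10, the share below was 52.9% of 206. The share past 2-fold was not particular to dim miRNAs. It was 10.4% among the 193 with a signal of 200 to 1000 and 10.7% among the 84 brighter still. Their interquartile ranges were 0.59 and 0.57, and their medians 0.021 and 0.65, against a median of -0.11 among the 287 dim ones. The 84 brightest, with quartiles of 0.30 and 0.86, thus lay higher on HuH-7-M as a group. With an offset of 50 and quantile normalisation, the setting that damps dim probes, the log2 differences of miR-425-3p, miR-423-3p and miR-16-5p were 0.15, 0.12 and -0.16. In that setting miR-423-5p had 0.52, and 0 of the 8 were past 2-fold, against 2.2% of all measured miRNAs. The offset is larger than the signals of every measured member except miR-423-5p. The setting could therefore hardly show a 2-fold change for the rest, and its 0 is no evidence of stable levels.

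**Figure D3:**
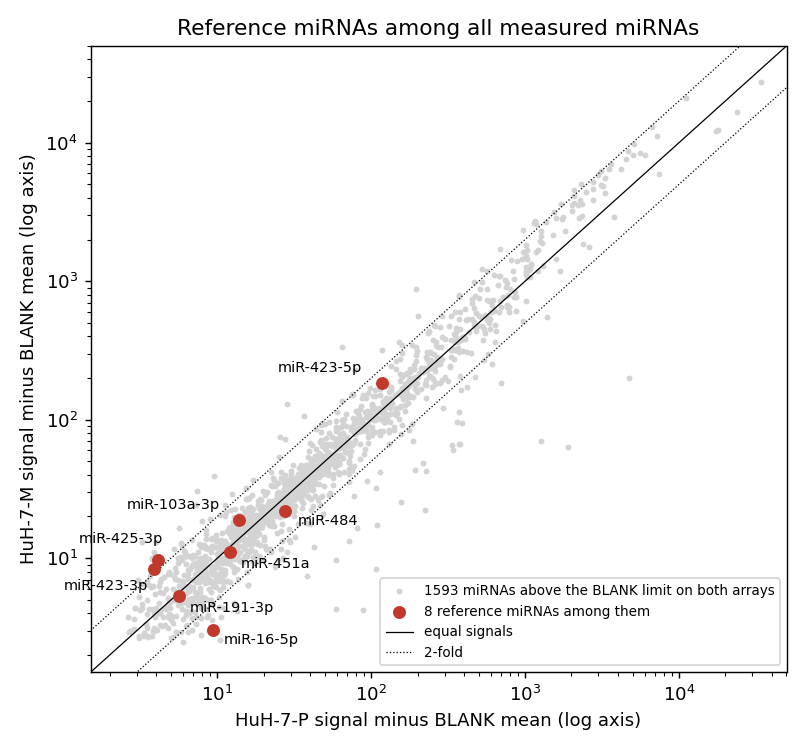
BLANK-subtracted signal on HuH-7-M (vertical, log axis) against HuH-7-P (horizontal, log axis) for the 1593 miRNAs above the BLANK limit on both arrays (grey) and the 8 reference miRNAs among them (red). The solid line is equality and the dotted lines are 2-fold. miR-425-3p, miR-423-3p and miR-16-5p lie past 2-fold at the dim end, and miR-423-5p lies within 2-fold at 185 and 118.

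Ratios between the members also differed between the arrays. A reference is used through ratios, and of the 28 pairs of measured members 13 had a ratio that changed by at least 2-fold between HuH-7-M and HuH-7-P, with a median change of 0.88 and a largest of 2.87 on the log2 scale, between miR-425-3p and miR-16-5p. The smallest was 0.040, between miR-191-3p and miR-451a. Each of the 13 pairs held miR-16-5p, miR-423-3p or miR-425-3p, which all had a geometric mean signal under 10. Among the pairs without these, none changed by 2-fold, and the largest change was 0.97, between miR-423-5p and miR-484. Low signal was not particular to miR-16-5p, miR-423-3p and miR-425-3p. miR-191-3p had a geometric mean signal of 5.47 and a log2 difference of -0.074. Over all pairs of the 1593 measured miRNAs, of any brightness, 18.8% changed by at least 2-fold. After normexp with an offset of 50 and quantile normalisation, 0 of the 28 pairs did, with a largest change of 0.68, against 4.98% of all pairs. The offset is larger than the signals of every measured member except miR-423-5p. Pairs without miR-423-5p could therefore hardly have reached 2-fold in that setting, and its 0 is no evidence of stable ratios. Pairs share their members and are given as a description.

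Scaling the arrays to a member moves every log2 difference by the member's own. Without scaling, 53 of the 1593 measured miRNAs were past 2-fold higher in HuH-7-M and 71 past 2-fold lower, with a median of 0.0035. Scaled to miR-423-5p the median became -0.65, with 8 higher and 306 lower. Scaled to miR-16-5p it became 1.63, with 1434 higher and 8 lower, and scaled to miR-425-3p it became -1.24, with 1 higher and 1146 lower. With an offset of 50 added to the signals the same scalings gave much smaller shifts, 0.16 with 37 higher and 20 lower for miR-16-5p and -0.14 with 9 higher and 32 lower for miR-425-3p, and with an offset of 16 they gave 0.42 (121 and 23) and -0.35 (5 and 58). miR-191-3p gave 0.078 (72 higher and 65 lower) and miR-451a 0.12 (85 and 64), the scalings nearest to none, and both have signals of 12.03 or less. miR-484 gave 0.32 (153 higher and 44 lower), miR-103a-3p -0.45 (14 and 188) and miR-423-3p -1.12 (3 and 990). The mean log2 difference of all 8 gave -0.17, with 29 higher and 106 lower. How much vesicle RNA went onto each array is not given in the labels, and fewer vesicles and less RNA per vesicle cannot be told apart.

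**Figure D4:**
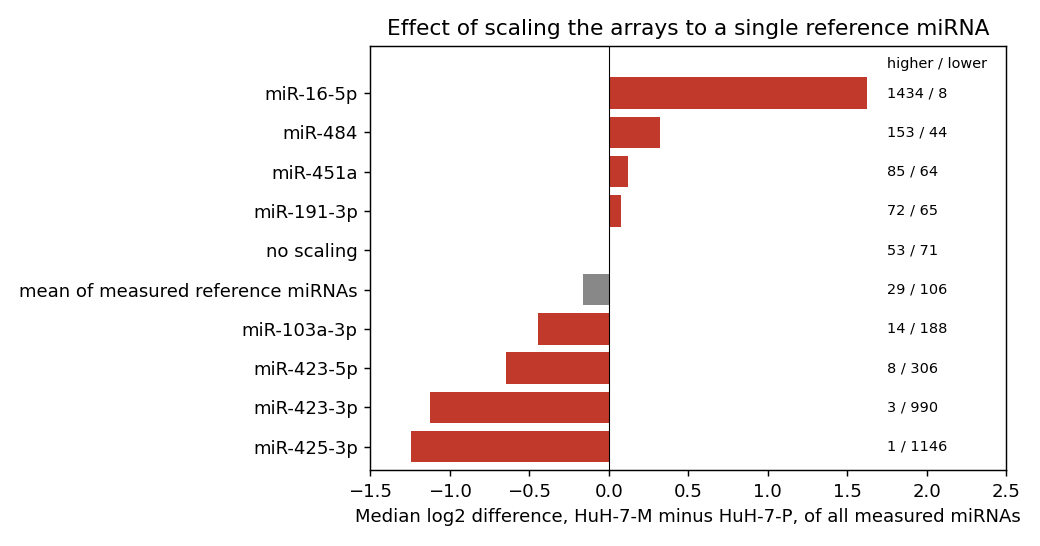
Median log2 ratio of HuH-7-M over HuH-7-P signal for the 1593 measured miRNAs after scaling the arrays to 1 reference miRNA (red) or to the mean of the 8 measured ones or to none (grey), with the numbers of miRNAs past 2-fold, higher then lower, printed at the right. The median runs from -1.24 with miR-425-3p to 1.63 with miR-16-5p.

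Other miRNAs in use as normalizers, a list of 22, were read in the same way. Of the 22, 14 were measured on both arrays (against 62.1% of all probes) and 5 passed the No Probe limit on both (against 30.8%), namely miR-24-3p, miR-1228-3p, miR-320a, miR-92a-3p and miR-328-3p. miR-24-3p, a vesicle miRNA of the miR-23 and miR-27 clusters, read 329 on HuH-7-M, against 326 on HuH-7-P, with signals of 270 and 266 and a log2 difference of 0.021. miR-1228-3p read 179 on HuH-7-M, against 182 on HuH-7-P (log2 difference of signals -0.026). miR-320a had signals of 88.1 and 73.5 (0.26), miR-92a-3p 68.8 and 46.5 (0.57) and miR-328-3p 35.9 and 30.9 (0.22) on HuH-7-M and HuH-7-P. The median over the 14 was 0.095 against 0.0035 for all measured miRNAs, with 0 past 2-fold higher and 1 past 2-fold lower, miR-26a-5p, at 61.5 on HuH-7-M, against 67.6 on HuH-7-P.

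Bright probes were more frequent among miRNAs rich in G and C on these arrays, and 4 members of high G+C content were dim for their band. Sequences were matched for 2253 of the 2565 probes by name. Of the miRNAs with under 40% G+C 0 of 399 passed both No Probe limits, against 7.06% at 40 to 50%, 29.5% at 50 to 60%, 64.1% at 60 to 70% and 78.5% above that. The 8 members with a sequence ran from 45.5% to 65.2% G+C with a median of 60.1%, against 52.2% over all matched miRNAs. In the band from 60 to 70%, where the median spot read 109 on HuH-7-M, against 115 on HuH-7-P, the 4 members miR-423-3p, miR-484, miR-191-3p and miR-425-3p read 64.1 to 80.8 on HuH-7-M and 63.6 to 87.2 on HuH-7-P, and 0 of the 4 passed both No Probe limits. miR-423-5p has 56.5% G+C, and the median spot of its band read 75.3 on HuH-7-M, against 77.2 on HuH-7-P. miR-191-5p, in the same band, read 63.6 on HuH-7-M, against 59.3 on HuH-7-P. In the band from 40 to 50%, the median spot read 61.3 on HuH-7-M, against 62.1 on HuH-7-P. The members there lay above it, miR-103a-3p at 77.7 and 73.6 and miR-16-5p at 61.8 and 69.1.

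**Figure D5:**
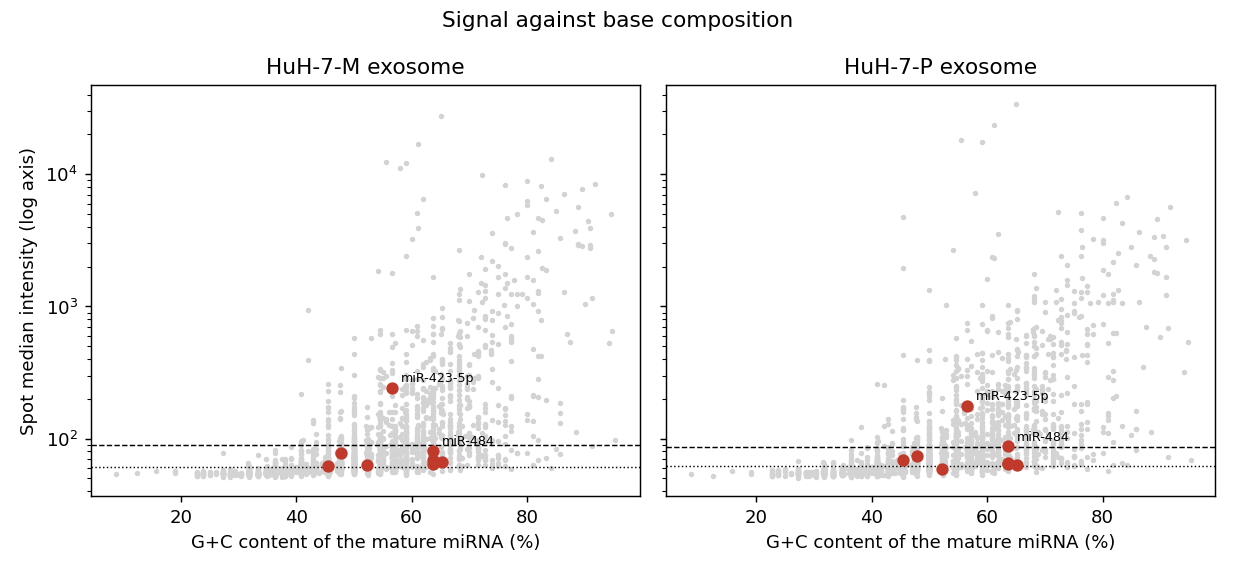
Spot median intensity (log axis) against the G+C content of the mature miRNA (%) on HuH-7-M (left) and HuH-7-P (right) for the 2253 probes with a matched sequence (grey) and the 8 reference miRNAs among them (red, with miR-423-5p and miR-484 named). Dashed and dotted lines are the No Probe and BLANK limits. miR-423-5p lies above the dashed line on both arrays, at 243 and 177, and 4 members of 60 to 70% G+C lie at 64.1 to 80.8 on HuH-7-M and 63.6 to 87.2 on HuH-7-P.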

How the data were processed

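RNA from 1 vesicle preparation per group was Cy5-labelled and put on a 3D-Gene miRNA array, per the labels' protocols; the extraction text of the labels speaks of cells, the sample names of exosomes. The deposited scanner output lists 3200 spots with an unsubtracted spot median intensity, per the file headers. miRNA probes have 1 spot each and carry the scanner's names; no member's spot had a bad-spot entry. The deposited table of scaled intensity values gives all 10 members under the same identifiers as the scanner output. Here the mean of all BLANK spots was subtracted, without scaling, so that a fold is a ratio of 2 printed signals. Alternatives used limma 3.58.1 (R 4.3.3), for normexp with an offset of 50 and quantile normalisation. The rest used Python 3.11.15. On simulated data with changes only in probes of signal above 50, recovery of the known folds was checked for the BLANK-subtracted ratio. It was not checked for the normalised values or for dim probes. The members were set by a fixed list of names, and named relatives come from lists of other normalizers, of relatives by hairpin, transcript or seed, and of cell type markers. miR-6838-5p, miR-3155a and miR-3155b, which share a seed with a member, were added after their values were seen. Members and lists were chosen with earlier results of these data known. A single array per group allows no p-value, and the number of arrays limits the precision.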

Additional observations from a re-analysis of the deposited data

How the results depend on the processing

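No paired analysis was possible because each group has 1 array. The signs of miR-423-5p, miR-423-3p and miR-425-3p (positive) and of miR-16-5p and miR-451a (negative) held in every alternative that gave each a value (14 for miR-423-5p, 10 or 11 for the others), with miR-423-5p between 0.068 (Spike Control spots) and 0.97, and those of miR-484, miR-191-3p and miR-103a-3p changed in at least 1. The values of miR-451a ran from -0.70 with Spike Control scaling to only -0.014 after normexp and quantile normalisation. The 2-fold size was kept by miR-423-3p in 6 of 11, miR-425-3p in 7 of 11 and miR-16-5p in 8 of 11. These counts are not sets of independent checks. Leaving out the filter, or using the No Probe limit where a member passed it, returns the main value unchanged, and the trimmed BLANK mean nearly so. Subtracting the No Probe mean or the Negative Control 2 and 3 mean gave no value for miR-423-3p, miR-425-3p, miR-16-5p and miR-451a. For these, at least 1 spot lay below that mean, so those settings could not test their signs. The BLANK mean of the own block, the column named background median and the Negative Control 2 and 3 settings were chosen after seeing the data. The median over the measured members, 0.19, moved to -0.39 with Spike Control scaling, to 0.74 with the No Probe mean subtracted, to 0.65 with the No Probe limit (miR-423-5p alone in both) and to 0.68 with the column named background median read as signal. Of the 10 members, 1 passed the No Probe limit and 2 a limit from Negative Control 2 and 3 on both arrays, in place of 8. Scaling to single members gave a median over all measured miRNAs of -0.65 (miR-423-5p), -1.12 (miR-423-3p), 0.32 (miR-484), 0.078 (miR-191-3p), -1.24 (miR-425-3p), -0.45 (miR-103a-3p), 1.63 (miR-16-5p) and 0.12 (miR-451a), in place of -0.17 with their mean. The 53 miRNAs 2-fold higher and 71 lower (42.7% higher) became 7 and 28 (20%) after normexp and quantile normalisation, 25 and 36 with an offset of 16, 8 and 259 (3.00%) with Spike Control scaling, which moves the median of all to -0.58, 26 and 27 with the No Probe limit and 106 and 141 without a filter. The count lower became 117 with the No Probe mean (33.1% of calls higher) and 170 with the Negative Control mean (21.7%, median of all -0.17).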
